A study of Mus musculus with 8 samples.

Results

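The immunity-related GTPase (IRG) family comprises interferon-inducible GTPases that defend mouse cells against microbes living inside vacuoles. The members described here were chosen by gene symbol, as the genes named Irgm1, Irgm2, Igtp, Iigp1, Tgtp1, Tgtp2, Gm4951, Gm5431 and Gm12250, which are 9 of the 54752 genes in the count tables. The question was how their RNA differed between the cortex of mice with narrowed carotid arteries and that of sham mice. All 8 mice were wild-type C57BL/6 males (C57BL/6 J in the methods) aged 14 weeks, and each library held bulk RNA from the right cerebral cortex of 1 mouse, taken 3 weeks after surgery. In the 4 mice with bilateral carotid artery stenosis (BCAS), microcoils were wound around both common carotid arteries, with the narrower coil on the right side, to lower blood flow to the brain over a long period. The 4 sham mice had the same operation without coils. The libraries held 16759364 to 21794435 counted fragments, so that 3 counts, the upper limit that a count of 0 allows, corresponded to at most 0.187 CPM (counts per 1000000 fragments of the scaled library size). This limit covers counting error only.

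IRG proteins fall into 2 classes, named after the residues in their first nucleotide-binding motif. The GKS proteins (glycine, lysine, serine) are effectors that load onto the vacuole of a parasite or bacterium and break it open, whereas the GMS proteins (glycine, methionine, serine) Irgm1, Irgm2 and Igtp are regulators that sit on the cell's own membranes and hold the effectors inactive there. The loading is directed by the ATG8 conjugation machinery, the part of autophagy that attaches ubiquitin-like proteins to lipids, and guanylate-binding proteins (GBPs) act on the same vacuoles. In brain and elsewhere the genes are transcribed when interferon signaling activates transcription factors that bind interferon-stimulated response elements (ISRE) and gamma-activated sites (GAS) in promoters.

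Promoter sequence is shown for the 7 members on chromosome 11, whichever motifs they held, because interferon acts on these genes through their promoters. RefSeq promoter windows on the GRCm38.p6 assembly, each spanning 250 bases before to 50 bases after an annotated start, were searched on both strands for GAAANNGAAA, the core of the ISRE, and for TTCNNNGAA, the GAS. Each stretch below reads 5′ to 3′ in the direction of transcription, with the matched letters in capitals. The GAS lies to the left of the ISRE core in 5 of the 7 stretches, where it does not overlap it.
Irgm1: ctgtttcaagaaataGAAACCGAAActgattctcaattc
Irgm2: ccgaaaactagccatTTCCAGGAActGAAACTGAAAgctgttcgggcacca
Igtp: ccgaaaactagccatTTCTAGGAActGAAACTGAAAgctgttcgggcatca
Tgtp1: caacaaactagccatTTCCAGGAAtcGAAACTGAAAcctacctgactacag
Tgtp2: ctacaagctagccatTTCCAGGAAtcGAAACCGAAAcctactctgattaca
Gm12250: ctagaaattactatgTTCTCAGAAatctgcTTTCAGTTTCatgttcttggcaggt
Gm5431: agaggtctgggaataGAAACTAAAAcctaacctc
These stretches lie at chr11:48871421-48871459 (minus strand) for Irgm1, chr11:58214887-58214937 (plus) for Irgm2, chr11:58199496-58199546 (plus) for Igtp, chr11:48992299-48992349 (minus) for Tgtp1, chr11:49064258-49064308 (minus) for Tgtp2, chr11:58183767-58183821 (plus) for Gm12250 and chr11:48902153-48902186 (minus) for Gm5431.

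An exact ISRE core stood in 6 of the 7 windows, against 3.44% of 32851 promoter windows of the same length. The GAS stood in 5 of the 7, against 8.30% of all windows, and both motifs stood in the same 5, against 0.454% of all windows. Irgm2 and Igtp, which are neighbors, had the same ISRE core and shared an unbroken run of 61 bases across their windows, while Tgtp1 and Tgtp2 shared a run of 27 bases. The ISRE core of Gm12250 was read on the opposite strand, Irgm1 had an ISRE core and no GAS match, and Gm5431 had no exact match to either motif, its capitals marking a stretch with 1 mismatch to the ISRE core. The windows of neighboring members share sequence and are not independent, and a match of letters is a description of the window, not a tested binding site. The RefSeq starts are not always those of the counted genes. The Irgm2 and Tgtp1 stretches lie inside the counted genes, which span 58199618 to 58222782 and 48985327 to 48994172. The Gm12250 stretch lies before the counted gene, which starts at 58187739. Those of Irgm1 and Gm5431 lie inside too, close to the starts at 48871683 and 48902214.

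The regulators Irgm1, Irgm2 and Igtp were higher in BCAS mice than in sham mice, by 3.09-fold to 4.58-fold, with no overlap between the groups. Irgm1, a regulator found on Golgi and endolysosomal membranes, had 212, 211, 188 and 181 counts in sham mice 1 to 4 and 1886, 440, 1146 and 726 counts in BCAS mice 1 to 4. Every BCAS mouse was above every sham mouse, BCAS mouse 1 was highest and BCAS mouse 2 was closest to the sham range. The level of Irgm1 was 11.7 ± 1.12 CPM in the sham group against 51.8 ± 26.3 CPM in the BCAS group (mean ± SD, n = 4 each), and the log2 fold change was 2.14 (SE 0.35, edgeR quasi-likelihood test with Benjamini-Hochberg adjustment over 17136 genes, adjusted p = 0.00431). Because the RNA was from whole cortex, more cells of an expressing type and more RNA per cell cannot be told apart here or for the other genes.

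Irgm2, the Golgi-associated regulator also called GTPI, had 92, 116, 98 and 140 counts in the sham group, against 1086, 242, 688 and 439 in the BCAS group. These groups did not overlap, and the mice had the same order within the BCAS group as for Irgm1. The log2 fold change of Irgm2 was 2.19 (SE 0.38, edgeR adjusted p = 0.00533), from 6.63 ± 1.49 to 30.3 ± 15.4 CPM. Igtp (Irgm3), the regulator of the endoplasmic reticulum and lipid droplets, had 139, 125, 116 and 107 counts in the sham group, against 886, 173, 437 and 319 in the BCAS group. Its groups lay close to each other at one point, since BCAS mouse 2 stood at 8.91 CPM and the highest sham mouse at 7.90 CPM. Igtp had the smallest log2 fold change of the members called higher, 1.63 (SE 0.38, edgeR adjusted p = 0.0154). Irgm2 and Igtp overlap on the same strand, and 4.39% of the exon bases of Irgm2 and 8.01% of those of Igtp are shared, so their counts are uncertain to that extent.

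Effector genes were also higher in BCAS mice, with the exception of Tgtp1, whose groups overlapped. Iigp1 (Irga6), the best-studied effector, which is loaded onto the vacuole of Toxoplasma, had 58, 82, 62 and 33 counts in the sham group, against 727, 153, 468 and 257 in the BCAS group. The lowest BCAS mouse, again mouse 2, was above the highest sham mouse. The log2 fold change of Iigp1 was 2.50 (SE 0.45, edgeR adjusted p = 0.00611), from 3.49 ± 1.28 to 19.8 ± 10.9 CPM.

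Tgtp1 and Tgtp2 are near-identical neighbors that encode the effector Irgb6. Of the 100-base stretches of their transcripts in GENCODE vM21, 73.1% of those of Tgtp1 and 76.8% of those of Tgtp2 occur in another gene as well, and reads that match both genes were not assigned to either, so their counts rest on the stretches that differ. Gm12185 also overlaps 6.96% of the exon bases of Tgtp1 on the same strand. Gm12185 was called higher (log2 fold change 2.67, SE 0.57, edgeR adjusted p = 0.0108), after passing the filter on low counts through the BCAS libraries. Another relative that shares sequence with members, Gm12187, had 0 counts in every library. Tgtp1 had 15, 31, 21 and 2 counts in the sham group, against 124, 21, 82 and 33 in the BCAS group, with BCAS mouse 2 at 1.08 CPM, below sham mouse 2 at 1.93 CPM and sham mouse 3 at 1.20 CPM. Tgtp2 had 11, 18, 18 and 13 counts in the sham group, against 231, 24, 137 and 58 in the BCAS group, which did not overlap. The log2 fold change was 1.64 for Tgtp1 (SE 0.69), which did not pass the edgeR test (adjusted p = 0.0927), and 2.62 for Tgtp2 (SE 0.60), which did (adjusted p = 0.0147). Without BCAS mouse 2, Tgtp1 passed with a log2 fold change of 1.94 (edgeR adjusted p = 0.0301), and without sham mouse 1 Tgtp2 no longer passed (2.47, edgeR adjusted p = 0.0509). Nor did Tgtp2 pass with limma-voom (2.26, adjusted p = 0.0677). On the compressed log2(CPM + 1) scale of limma-trend, the values were 0.98 for Tgtp1, 1.53 for Tgtp2 and 1.52 for their sum.

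Summed over both Tgtp genes, the counts were 26, 49, 39 and 15 in the sham group against 355, 45, 219 and 91 in the BCAS group. BCAS mouse 2 lay within the sham range and the other 3 BCAS mice lay above it. The sum had a log2 fold change of 2.18 (SE 0.60, edgeR adjusted p = 0.0260), which was past the threshold here but not without sham mouse 1, 3 or 4 or BCAS mouse 3, where the adjusted p rose to as much as 0.0754. Nor did the sum pass with replicate number as a block (2.01, edgeR adjusted p = 0.0621) or with limma-voom (1.98, adjusted p = 0.0779). Tgtp2 made up 42.3, 36.7, 46.2 and 86.7% of the pair's counts in sham mice, where sham mouse 4 rested on 15 counts, and 65.1, 53.3, 62.6 and 63.7% in BCAS mice.

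The largest fold changes belonged to effector-type genes that were nearly silent in sham cortex. Gm4951 (Ifgga2), a relative of Iigp1, counted 2, 8, 5 and 1 fragments across the sham group, 16 in all, against 290, 77, 150 and 117 across the BCAS group, 634 in all. Gm5431 (Irgb9b8) had 2, 9, 3 and 1 counts in the sham group, against 449, 69, 132 and 144 in the BCAS group. For both genes even BCAS mouse 2 was far above every sham mouse. Fitted log2 fold changes were 5.0 for Gm4951 (SE 0.56, edgeR adjusted p = 0.00169) and 5.38 for Gm5431 (SE 0.72, edgeR adjusted p = 0.00252). DESeq2 gave 5.04 and 5.42 and limma-voom 5.09 and 5.37 for Gm4951 and Gm5431, while limma-trend on log2(CPM + 1), where the added 1 compresses the change of low genes, gave 2.74 and 2.90. Without sham mouse 2, which had the highest sham counts, the edgeR values were 5.59 for Gm4951 and 6.28 for Gm5431, and without BCAS mouse 1 that of Gm5431 was 4.76. Of the 100-base stretches of Gm5431, 20.6% occur in other genes, most of them in 9930111J21Rik1, so reads from these stretches may be missing too.

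Gm12250 (Irgb10), an effector that works with GBPs to break bacterial membranes and expose their contents to inflammasomes, had 6, 13, 6 and 3 counts in the sham group, against 235, 27, 102 and 65 in the BCAS group. The groups did not overlap. The log2 fold change of Gm12250 was 3.63 (SE 0.67, edgeR adjusted p = 0.00670), from 0.419 ± 0.272 to 5.19 ± 3.82 CPM, and limma-trend on log2(CPM + 1) gave 1.92.

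**Figure D1:**
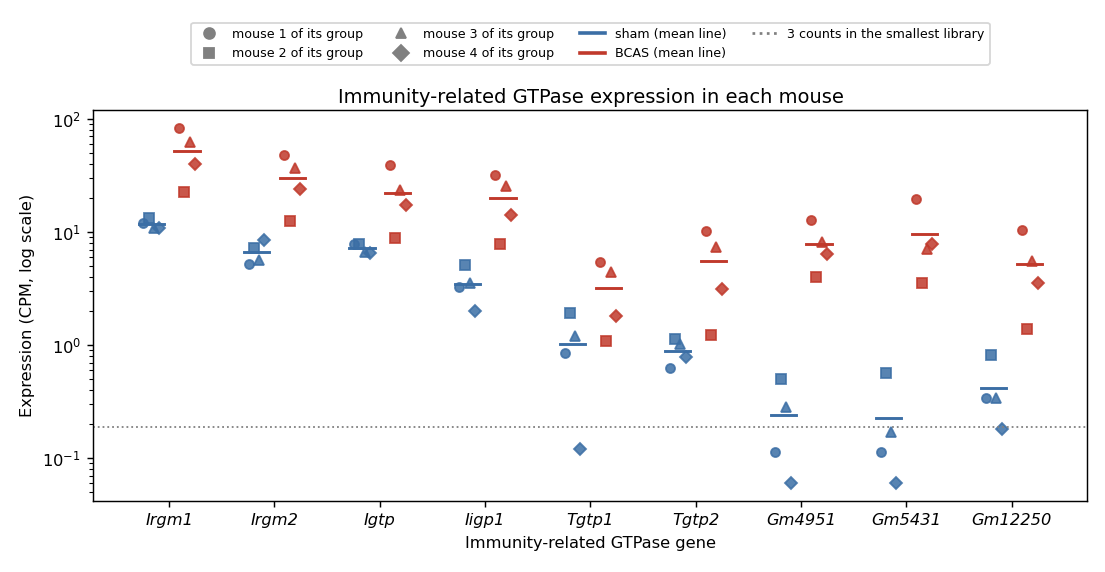
Level of each of the 9 immunity-related GTPase genes in each mouse, as CPM on a log axis, with sham and BCAS mice as separate points and the group means marked. BCAS mice lie above sham mice without overlap for every gene apart from Tgtp1, where BCAS mouse 2 stood at 1.08 CPM and sham mouse 2 at 1.93 CPM.

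Across the family, 8 of the 9 members were called higher after BCAS (adjusted p under 0.05 and at least a doubling) and none was called lower. Over all 17136 genes tested, 11.0% were called higher and 1.28% lower. The 220 genes called lower became 86 without sham mouse 1 and 559 without BCAS mouse 2. Every BCAS mouse stood above every sham mouse for 8 of the 9 members and for 18.5% of all genes tested. The median log2 fold change was 2.50 for the members and -0.01 for all genes tested. All 9 members passed the filter on low counts, but 4 of them, Tgtp1, Gm4951, Gm5431 and Gm12250, passed through the BCAS libraries, with 3, 0, 0 and 1 sham libraries at or above the cutoff, so that a difference was to some degree built into their passing. The other 5 members had enough counts in all 4 sham libraries, and all 5 were called higher.

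**Figure D2:**
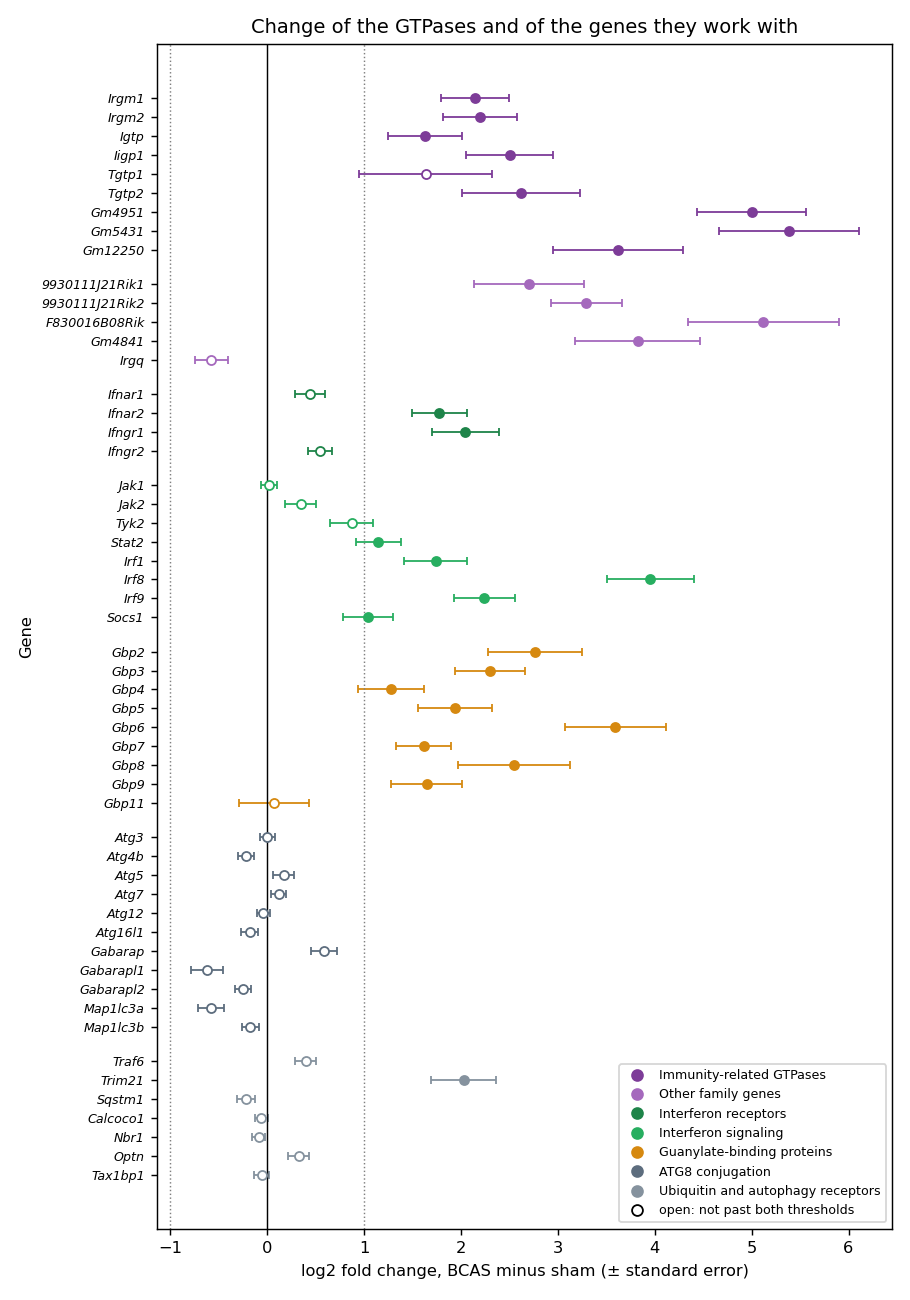
Log2 fold change (BCAS against sham, edgeR) of the family members and of other genes of the pathway, with bars of 1 SE, grouped by role. The members range from 1.63 for Igtp to 5.38 for Gm5431, Tgtp1 (1.64) did not pass the test, and the ATG8 conjugation genes lie around 0, between -0.62 and 0.59.

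Per length of transcript, sham cortex held more regulator than effector RNA among the 9 members. In CPM per kilobase of exon, the sham levels were 3.56 ± 0.374 for Igtp, 2.02 ± 0.193 for Irgm1, 1.80 ± 0.405 for Irgm2 and 1.12 ± 0.411 for Iigp1 (mean ± SD, n = 4). In the same unit, Gm12250, Tgtp1 and Tgtp2 followed at 0.329 ± 0.214, 0.320 ± 0.235 and 0.303 ± 0.077, and Gm4951 and Gm5431 came last at 0.091 ± 0.075 and 0.059 ± 0.059. Igtp was above Irgm1 in all 4 sham mice with no overlap of their ranges, whereas the ranges of Irgm1 and Irgm2 overlapped, as did those of Irgm2 and Iigp1. Gm12250, Tgtp1 and Tgtp2 could not be ordered beyond their spread. Levels of the Tgtp genes per length are uncertain because of the sequence they share, and only 1274 exon bases of Gm12250 are annotated. Orders, sums and shares per length cover the 9 members and leave out other IRG genes. Of these, Ifi47 stood at 0.789 ± 0.154 in the sham group and 4.64 ± 3.45 in the BCAS group, with both means above those of Gm12250. The gene 9930111J21Rik2 stood at 0.328 ± 0.043 and 3.22 ± 1.65.

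In BCAS cortex the first 5 places among the 9 members in CPM per kilobase were held by the same genes. These were Igtp at 11.0 ± 6.27, Irgm1 at 8.91 ± 4.52, Irgm2 at 8.22 ± 4.17, Iigp1 at 6.34 ± 3.48 and Gm12250 at 4.08 ± 2.99. Gm4951 (2.95 ± 1.40) and Gm5431 (2.48 ± 1.82) moved from the last places to above Tgtp2 (1.87 ± 1.37) and Tgtp1 (0.995 ± 0.650). The mice differed so much in level that the ranges of all neighbors in this order overlapped. Within a mouse the order was steadier, and Igtp was above Irgm1, Irgm1 above Irgm2, Irgm2 above Iigp1 and Iigp1 above Gm12250 in 4 of 4 BCAS mice. Lower in the order, Gm12250 was above Gm4951, Gm4951 above Gm5431 and Gm5431 above Tgtp2 in 3 of 4. Tgtp2 was above Tgtp1 in 4 of 4.

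The summed RNA of the 9 members held relatively more effector and less regulator transcript in BCAS mice. Summed in CPM per kilobase, the 3 GMS genes stood at 7.40, 8.09, 6.65 and 7.36 in the sham group against 46.5, 11.7, 32.4 and 21.9 in the BCAS group. The 6 effector genes stood at 1.87, 3.60, 2.28 and 1.12 in the sham mice and at 33.4, 6.79, 21.2 and 13.3 in the BCAS mice. The ratio of effectors to regulators was thus 0.253, 0.445, 0.343 and 0.153 in the sham group against 0.720, 0.581, 0.655 and 0.610 in the BCAS group, and the groups did not overlap. Of the effectors, Tgtp1, Gm4951, Gm5431 and Gm12250 passed the filter on low counts through the BCAS libraries. The separation of the groups in this ratio rested on Gm4951, Gm5431 and Gm12250, with 0, 0 and 1 sham libraries at or above the cutoff. The shares of Iigp1, Tgtp1 and Tgtp2 in the sum overlapped between the groups.

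Shares of single genes were taken in the sum of the 9 members per length, here called the family sum. The share of Igtp was 37.4 ± 3.74% in the sham group against 23.5 ± 1.20% in the BCAS group. The share of Gm12250 went from 3.26 ± 1.58% to 8.0 ± 1.73%, that of Gm4951 from 0.890 ± 0.632% to 6.67 ± 1.07%, and that of Gm5431 from 0.561 ± 0.474% to 5.15 ± 1.28%. For these 4 genes the shares of the groups did not overlap, while those of Irgm1, Irgm2, Iigp1, Tgtp1 and Tgtp2 did. Among the 4 BCAS mice, whose family sum ran from 18.5 to 79.9 CPM per kilobase, Irgm1 held 17.9 to 21.1% of the sum, Irgm2 16.2 to 18.8%, Igtp 21.8 to 24.4% and Iigp1 12.7 to 15.1%. The smaller shares varied more in proportion, from 5.91 to 10.1% for Gm12250, 5.71 to 8.11% for Gm4951, 3.44 to 6.40% for Gm5431, 2.28 to 4.70% for Tgtp2 and 1.59 to 2.58% for Tgtp1.

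**Figure D3:**
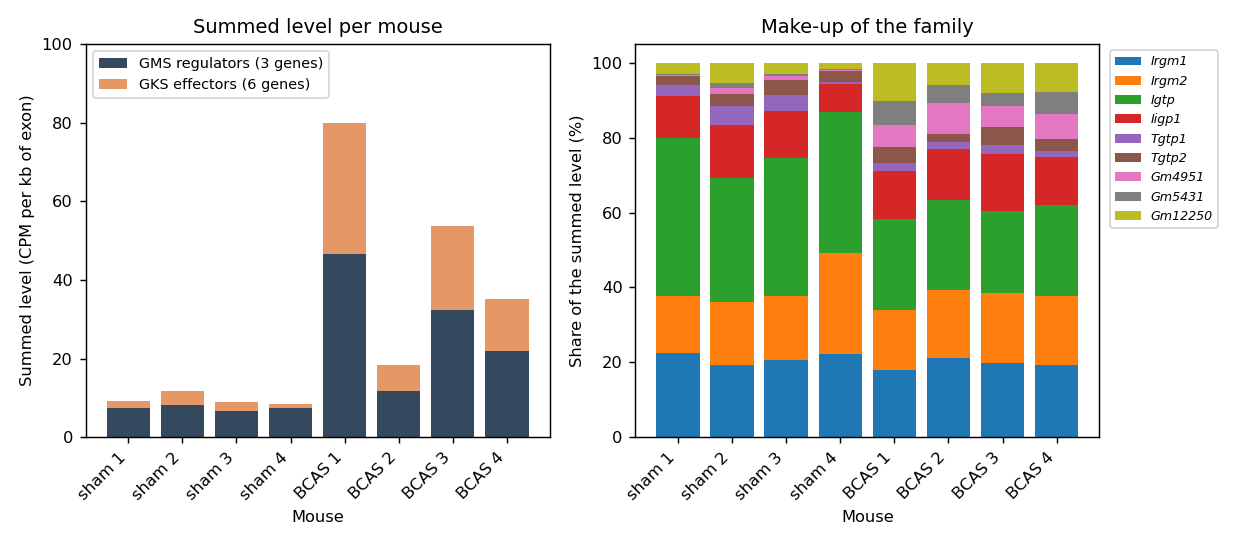
Family sum (the 9 members) in CPM per kilobase of exon for each mouse, split into regulators and effectors, and each gene's percent of that sum. The sum lies between 8.49 and 11.7 in sham mice and between 18.5 and 79.9 in BCAS mice, and Igtp holds the largest share in every mouse.

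The members ranked the BCAS mice alike. BCAS mouse 1 was highest and BCAS mouse 2 lowest for 9 of 9 members, and the full order of mice 1, 3, 4 and 2 held for 8 of 9, with mouse 4 above mouse 3 for Gm5431. Taking the median over members of each mouse's log2 level minus the sham mean, BCAS mice 1 to 4 stood at 3.23, 0.95, 2.89 and 1.86. These 9 values come from the same libraries and are not independent replicates.

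Markers of cell types were compared to see what else differed among these mice. The neuronal and astrocytic markers that define cortex were present in every library. All 7 microglial markers examined (Aif1, Csf1r, Cx3cr1, P2ry12, Tmem119, Itgam and C1qa) were called higher, against 11.0% of all genes tested. Their summed level was 256 to 310.3 CPM in the sham group against 3773, 1008, 1983 and 1990 CPM in BCAS mice 1 to 4. Of the monocyte and neutrophil markers, Ccr2 and Ly6c2 were tested and called higher, but they passed the filter on low counts through the BCAS libraries. The sum of that list was 0.72 to 1.5 CPM in the sham group against 81.1, 3.55, 50.6 and 13.1 CPM in the BCAS group, the order of mice seen for 8 of the 9 members. That order was not particular to this list. The sums of the lymphocyte markers, the GBPs, the interferon ligands and receptors, and the interferon signaling genes ranked the BCAS mice in the same way. The lymphocyte markers summed to 5.49 to 12.3 CPM in the sham group against 42.2, 5.87, 27.3 and 10.6 CPM in the BCAS group, with Cd8a called higher after passing the filter in the same way. The other tested lymphocyte gene, Trbc2, went the other way (log2 fold change -0.67) and was not called (edgeR adjusted p = 0.134). It stood at 9.28 ± 3.11 CPM in the sham group and 5.83 ± 2.05 CPM in the BCAS group, and made up most of the sham sum. The remaining 4 of the 6 lymphocyte genes did not pass the filter on low counts. Among these, the T-cell receptor component Cd3g had 0, 0, 0 and 1 counts in the sham group, against 147, 2, 65 and 27 in the BCAS group, and the cytotoxic-cell gene Nkg7 had 0, 0, 1 and 0 against 123, 3, 75 and 10. Cd3e had 3, 1, 2 and 2 counts against 139, 5, 67 and 27. Cd79a had 4, 8, 3 and 3 against 102, 13, 59 and 7, and its lowest BCAS mouse, mouse 4, lay within the sham range in CPM. Of the monocyte and neutrophil list, Plac8, S100a8 and S100a9 also fell short of the filter, with at most 6 counts in any sham library. Plac8 had 323, 4, 121 and 52 counts in BCAS mice 1 to 4, S100a8 had 43, 5, 69 and 12 and S100a9 had 92, 7, 98 and 16, so that mouse 3 and not mouse 1 was highest for the S100 genes.

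Among resident cells, 2 of 6 astrocyte markers, Gfap and Aqp4, were called higher and 5 of 6 were higher by adjusted p alone (19.2% of all genes tested were higher and 12.8% lower by that rule), and the summed level was 4473 to 5153 CPM in sham mice and 5990 to 9028 CPM in BCAS mice. By the edgeR test 0 of 6 endothelial markers were called, with 2 at an unadjusted p under 0.05 that also had an adjusted p under 0.05 and missed the fold threshold alone, and with sums of 260 to 342 and 320 to 454 CPM. Summed neuronal markers were 7310 to 8523 CPM in sham mice and 2805 to 6147 CPM in BCAS mice, and 1 of 6, Snap25, was called lower, while 4 of 6 were lower by adjusted p alone. For cortical excitatory neurons the sums were 1923 to 2160 and 603 to 1658 CPM, and 1 of 5 markers, Tbr1, was called lower, while 3 of 5 were lower by adjusted p alone. With the fold threshold, 11.0% of all genes tested were called higher and 1.28% lower. The part of these marker differences in the IRG result was not tested.

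**Figure D4:**
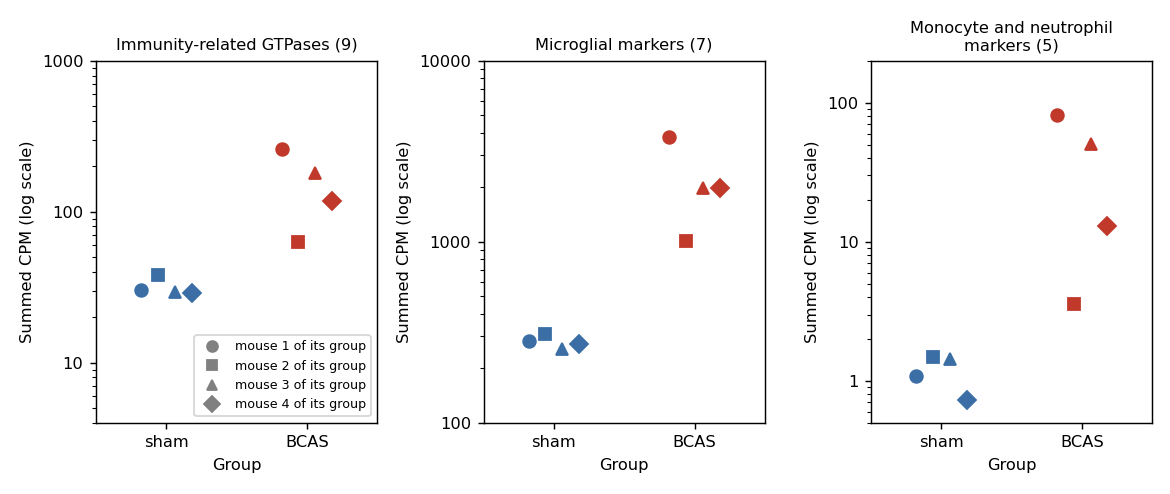
Summed CPM on log axes of the 9 immunity-related GTPases, of 7 microglial markers and of 5 monocyte and neutrophil markers in each mouse, with the same symbol for the same mouse across panels. BCAS mouse 1 is highest and BCAS mouse 2 lowest of its group in all 3 panels, and mice 3 and 4 lie close together for the microglial markers (1983 and 1990 CPM).

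Of the interferon genes, Ifnb1 and Ifng were examined and were hardly detected, whereas several receptor and signaling genes were higher. Ifnb1, the beta interferon gene, had 0 counts in all 8 libraries, which allows up to 0.187 CPM, and Ifng, the gamma interferon gene, had 0, 1, 0 and 0 counts in the sham group, against 3, 1, 4 and 0 in the BCAS group. Of 4 receptor genes tested, 2 were called higher, Ifnar2 of the type I receptor (log2 fold change 1.78, SE 0.28, edgeR adjusted p = 0.0041) and Ifngr1 of the type II receptor (2.05, SE 0.34, edgeR adjusted p = 0.0048). The partner chains Ifnar1 (0.45, adjusted p = 0.0526) and Ifngr2 (0.55, adjusted p = 0.0153) did not pass both parts of the edgeR call. Of 8 signaling genes, 5 were called higher, with log2 fold changes of 1.15 for Stat2, 1.74 for Irf1, 3.96 for Irf8, 2.24 for Irf9 and 1.04 for the feedback inhibitor Socs1. Jak1 (0.02), Jak2 (0.35) and Tyk2 (0.87) were not called. Without BCAS mouse 1, 3 of these signaling genes were called. With all 8 mice, 11.0% of all genes tested were called higher.

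GBPs, the larger interferon-inducible GTPases, were mostly higher as well. Of 9 tested, 8 were called higher, against 11.0% of all genes tested, and the median log2 fold change of the 9 was 1.94. The values of the 8 were 2.77 for Gbp2, 2.30 for Gbp3, 1.28 for Gbp4, 1.94 for Gbp5, 3.59 for Gbp6, 1.62 for Gbp7, 2.55 for Gbp8 and 1.65 for Gbp9. Gbp6 and Gbp8 passed the filter on low counts through the BCAS libraries, and with at least 10 counts in every library 6 of 7 tested were called. Gbp11 (0.07) was not called. Gbp2b had 0 counts in every sham mouse and 2, 0, 3 and 0 in BCAS mice and was not tested. Gbp10 did not pass the filter on low counts, with 0, 0, 2 and 0 counts in the sham group, against 79, 6, 37 and 17 in the BCAS group.

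The genes of the machinery that directs IRG proteins to vacuoles were counted in the same way. Of 11 ATG8 and ATG8-conjugation genes, 0 were called with edgeR, 5 having an unadjusted p under 0.05, and their median log2 fold change was -0.17. Without the fold threshold 4 passed, Gabarap with a positive log2 fold change (0.59, edgeR adjusted p = 0.0138) and Gabarapl1 (-0.62, adjusted p = 0.0255), Map1lc3a (-0.58, adjusted p = 0.0154) and Gabarapl2 (-0.25, adjusted p = 0.0424) with negative ones, by a rule that 19.2% of all genes tested passed as higher and 12.8% as lower. Of 7 ubiquitin and autophagy-receptor genes acting at such vacuoles, 1 was called higher, the ubiquitin ligase Trim21 (2.03, SE 0.34, edgeR adjusted p = 0.0046). With the fold threshold, these counts are near the 11.0% called higher and 1.28% called lower among all genes tested.

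A list of further IRG genes, which left out Ifi47 (given with the nearest profiles), held 5 tested genes. Of these, 4 were called higher, against 11.0% of all genes tested. F830016B08Rik (Ifgga4) had 1, 3, 2 and 2 counts in the sham group, against 183, 19, 110 and 44 in the BCAS group, and Gm4841 (Ifgga3) had 0, 1, 1 and 2 against 26, 11, 27 and 10. Both were nearly silent in sham cortex and passed the filter on low counts through the BCAS libraries, so a difference was built into their passing. The other two were 9930111J21Rik1 (log2 fold change 2.70, SE 0.56, edgeR adjusted p = 0.0103) and 9930111J21Rik2 (3.29, SE 0.37, edgeR adjusted p = 0.0017). Irgq, a divergent IRG-like gene involved in autophagy, had a log2 fold change of -0.57 (SE 0.17, edgeR adjusted p = 0.0348) and did not pass the fold threshold. Irgc1, the testis IRG gene, did not pass the filter on low counts, with 15, 9, 8 and 3 counts in the sham group, against 8, 3, 3 and 8 in the BCAS group.

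The genes whose profile over the 8 libraries was nearest to the members' median profile were Ifitm2, Tec, Ifi47, Hacd4 and Dna2, with root-mean-square differences of 0.23, 0.27, 0.27, 0.28 and 0.28 on the log2 scale. Ifi47 (IRG-47 or Irgd) is itself an IRG effector, and had 33, 37, 38 and 24 counts in the sham group, against 504, 79, 269 and 95 in the BCAS group. Ifitm2 encodes an interferon-induced membrane protein, with 37, 46, 40 and 24 counts in the sham group, against 430, 63, 277 and 111 in the BCAS group. Log2 fold changes were 2.56 for Ifi47 (SE 0.54, edgeR adjusted p = 0.0105) and 2.31 for Ifitm2 (SE 0.53, edgeR adjusted p = 0.0143), given as a description since likeness to the members chose these genes.

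The members lie in 3 groups of neighbors in the mouse genome (mm10, GENCODE vM20, 1-based). On chromosome 11, Irgm1 (ENSMUSG00000046879.7), Gm5431 (ENSMUSG00000058163.14), Tgtp1 (ENSMUSG00000078922.9) and Tgtp2 (ENSMUSG00000078921.3) are transcribed from the minus strand between positions 48861968 and 49064206. Further along, Gm12250 (ENSMUSG00000082292.3), Igtp (ENSMUSG00000078853.8) and Irgm2 (ENSMUSG00000069874.7) are transcribed from the plus strand between 58187739 and 58222782. Gm4951 (ENSMUSG00000073555.1) and Iigp1 (ENSMUSG00000054072.11) lie on the plus strand of chromosome 18 between 60212080 and 60392627. Counts were taken over all annotated exons of each gene. Each of the 3 groups held at least 1 member whose log2 fold change was 2.50 or more.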

How the data were processed

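Right cortex RNA from 4 sham and 4 BCAS mice was sequenced by the authors as paired-end bulk libraries, with 1 mouse per library according to the methods. Per the file headers, the deposited values are raw counts of fragments over exons, made with featureCounts 2.0.1 and GENCODE vM20 on mm10 without strand and with no option to count multi-mapped reads, whereas the methods name another version and RefSeq genes. Names came from GENCODE vM21 (54723 of 54752 identifiers matched). Genes were kept by edgeR's filterByExpr, scaled by TMM and tested with edgeR 4.0.16 (quasi-likelihood, Benjamini-Hochberg over 17136 genes), calling genes at an adjusted p under 0.05 with an absolute log2 fold change of at least 1. CPM (counts per 1000000) used TMM-scaled library sizes. The tests were checked on simulated data, with a single fixed spread for all genes and changes only in genes well counted in sham libraries. That spread was smaller than the spread of the members among the BCAS mice. The check therefore does not cover such spread or the low sham counts of several members. Alternatives were DESeq2 1.42.0, limma 3.58.1 (voom and trend), other scalings and filters, a replicate block and leaving out each mouse. The members and gene lists were chosen with earlier results of these data known. The rule for named genes was all members, every called gene of the other lists, up to 5 of a list that were untested or moved the other way, and the 5 genes nearest to the members' median profile. Further genes named were chosen after their values were seen. One signaling gene and one marker are not reported here. Columns of other samples were absent. Promoter windows came from RefSeq (GRCm38.p6) for 7 members, and the other members' windows are not used here.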

Additional observations from a re-analysis of the deposited data

How the results depend on the processing

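Calling by adjusted p alone, without the fold threshold, raised the called genes from 2097 to 5490, the ATG8 list from 0 to 4 and the ubiquitin and autophagy-receptor list from 1 to 3. Asking for at least 10 counts in every library left 5 members and 3 further IRG genes to test, of which 5 and 2 were called, against 8 and 4. For the summed Tgtp genes the log2 fold change of 2.18 became 1.98 with limma-voom (adjusted p = 0.0779), and it was 1.64 for Tgtp1 on its own (edgeR adjusted p = 0.0927). Leaving out 1 mouse at a time gave 1.74 to 2.51 for that sum, 7 to 9 members called, 3 to 6 interferon signaling genes called (3 without BCAS mouse 1) and 1644 called genes (without BCAS mouse 1) to 2967 (without BCAS mouse 2). Irgm1, Irgm2, Igtp, Iigp1, Gm4951, Gm5431 and Gm12250 were called in every alternative that tested them, with an adjusted p of up to 0.0496 for Igtp. No member changed direction in any alternative run.

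Sham and BCAS mice share replicate numbers, but deviations from the group means of same-numbered mice correlated at only -0.05, -0.10, -0.01 and 0.00 over 17136 genes. With replicate number as a block, 1809 genes and 8 members were called, and the summed Tgtp genes had a log2 fold change of 2.01 (edgeR adjusted p = 0.0621).

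Depth limited the sham side of Gm4951, Gm5431, Gm12250 and the Tgtp genes, where a few fragments set the fold change. Errors rest on 4 mice per group, and reads shared between near-identical genes could not be assigned.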
